A study of Mus musculus with 16 samples.

Results

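The genes described here are the 7 MHC class II presentation genes *H2-Aa*, *H2-Ab1*, *H2-Eb1*, *H2-DMa*, *H2-DMb1*, *Cd74* and *Ciita*, out of 20134 mouse genes that had a value on all 16 arrays. They were chosen by name for their place in the pathway, and all 7 were found on the array by the RefSeq accession that their probes carry (NM_010378, NM_207105, NM_010382, NM_010386, NM_010387, NM_001042605 and NM_007575, in the order given). The RNA came from the right neocortex, rostral from bregma, of C57BL/6J mice, and the study compared the unlesioned side of the brain after removal of the left cortex by suction (cortical hemisuction, called hemidecortication in the labels) early or late in life. Neonatal brain hemisuction (NBH, labeled NBI) was done at P7 (postnatal day 7) and was sampled 1 week later at P14 and 4 weeks later at P35, while adult brain hemisuction (ABH, labeled ABI) was done at 8 to 12 weeks of age and was sampled 1 and 4 weeks later. Controls (labeled NC) had the ages P7, P14, P35 and 10 weeks, and no sham surgery is described for them. The labels put the ABH pools at 11 and 15 weeks of age, which are 4 weeks apart although the times after surgery are 3 weeks apart. Each group is 1 pool of RNA, described in the methods as made from 4 male animals, and each pool was labeled with Cy3 for an array on one chip and with Cy5 for an array on the other. The SD between the dyes is therefore a technical error, no test between conditions was possible, and every difference below is between these pools.

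MHC class II molecules carry peptides from endocytosed proteins to the cell surface, where CD4+ T cells read them. *H2-Aa* and *H2-Ab1* encode the alpha and beta chains of the I-A molecule and *H2-Eb1* the beta chain of I-E, whose alpha chain is not expressed in the C57BL/6 strain. *Cd74* encodes the invariant chain, which guards the groove of new class II molecules and directs them to endosomes, *H2-DMa* and *H2-DMb1* encode the alpha and beta chains of the DM molecule, which exchanges the remnant of the invariant chain for a peptide, and *Ciita* encodes the transactivator that switches the class II promoters on. In the healthy brain class II is sparse and is carried mainly by macrophages of the brain borders and by a few microglia, and it is known to become more abundant on such cells after injury.

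Class II promoters carry an X box, bound by the RFX complex, an X2 box, bound by CREB, and a Y box, bound by NF-Y, and the transactivator docks on these factors. The promoter windows of RefSeq (GRCm38.p6, 250 bases before to 50 bases after an annotated start) were therefore searched on both strands for a Y box core (ATTGG), an X box core (AGNN directly followed by ACNGATG, where N is any base), an X2 box core (TGACG) and the gamma-activated sequence of interferon gamma targets (TTCNNNGAA). None of these letter patterns contains another. A window was found for 4 of the 7 genes, with 2 windows for *H2-DMa*, and none for *H2-Ab1*, *Cd74* and *Ciita*. The 150 bases before the start are printed for 4 of these 5 windows, 5′ to 3′ on the gene's strand. The X, X2 and Y core matches are in capitals, so that windows with both an X and a Y core can be set beside those without.
H2-Eb1 (chr17:34305717-34305866, + strand): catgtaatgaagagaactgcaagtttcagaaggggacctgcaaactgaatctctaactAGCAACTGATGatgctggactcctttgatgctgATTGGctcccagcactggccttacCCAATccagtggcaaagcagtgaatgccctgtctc
H2-DMb1 (chr17:34153041-34153190, + strand): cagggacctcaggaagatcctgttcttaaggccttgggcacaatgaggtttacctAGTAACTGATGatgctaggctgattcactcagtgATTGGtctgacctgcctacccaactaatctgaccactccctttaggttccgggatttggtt
H2-Aa (chr17:34287824-34287973, - strand): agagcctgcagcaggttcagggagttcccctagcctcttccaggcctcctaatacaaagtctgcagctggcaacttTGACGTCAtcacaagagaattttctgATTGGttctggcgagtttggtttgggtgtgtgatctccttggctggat
H2-DMa (chr17:34122682-34122831, + strand): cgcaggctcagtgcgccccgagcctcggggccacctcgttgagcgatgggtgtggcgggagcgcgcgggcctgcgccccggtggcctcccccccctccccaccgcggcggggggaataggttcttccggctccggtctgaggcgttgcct

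The X core of *H2-Eb1* lay at −92 to −82, counting −1 as the base before the start, and that of *H2-DMb1* at −95 to −85. A Y core followed on the same strand after 22 bases in *H2-Eb1* and after 23 bases in *H2-DMb1*, and *H2-Eb1* had another Y core on the other strand at −35 to −31. *H2-Aa* had no match to the X core as searched, but had an X2 core on each strand (−74 to −70 and −71 to −67) and a Y core at −48 to −44. The first *H2-DMa* window had no match and the second had a Y core alone, at −198 to −194. Both *H2-DMa* windows belong to starts inside the gene's annotated span (chr17:34119693-34139101), and no window at the first base of that span was searched. The windows of *H2-Eb1*, *H2-DMb1* and *H2-Aa* belong to the outer end of their genes. The matches of *H2-DMa* are therefore those of these starts only. No window of these genes matched the gamma-activated sequence. Among all 32851 windows of this length, the Y core was found in 37.4%, the X2 core in 20.8%, the gamma-activated sequence in 8.30% and the X core in 0.968%, and 0.387% held both X and Y cores. A match is a run of letters and not a measured binding site, and no binding was measured in these samples.

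**Figure D1:**
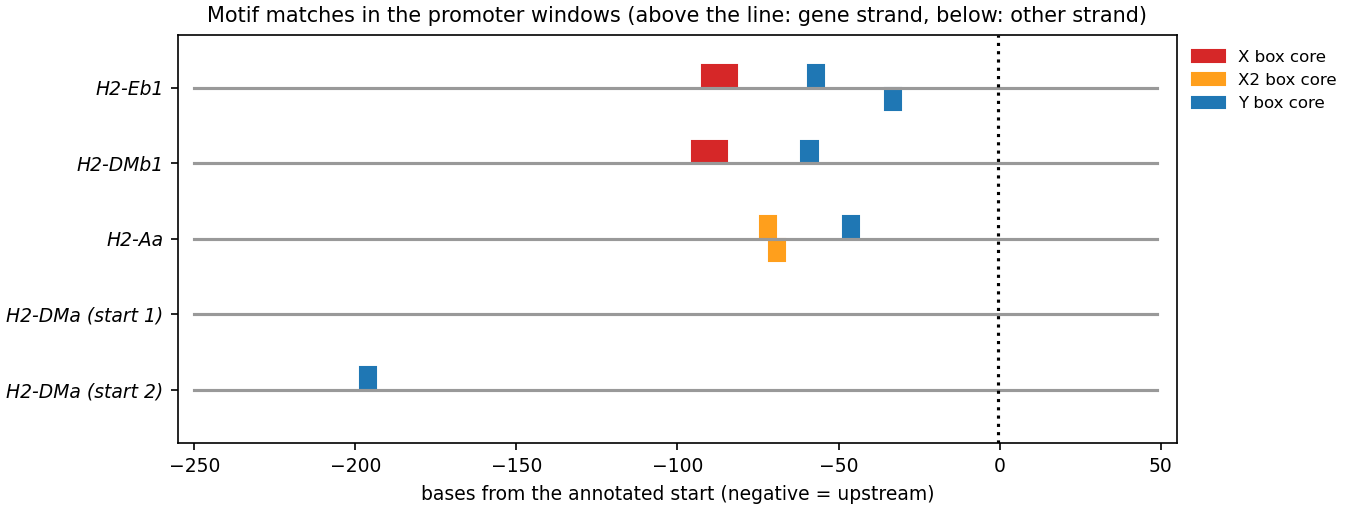
Matches to the X, X2 and Y box cores in the 5 promoter windows, by distance from the annotated start in bases (x axis), with boxes above the line for the gene's strand and below it for the other strand. *H2-Eb1* and *H2-DMb1* have an X core and, 22 and 23 bases further on, a Y core, whereas *H2-Aa* has X2 and Y cores and *H2-DMa* a distant Y core in its second window. Both *H2-DMa* starts lie inside the gene's annotated span.

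Signals are given as the log2 intensity of the labeled channel minus the 75th percentile of its array, so that 0 is a spot at that percentile, and the level of one probe is not set against that of another. The median spot intensity lay between 192 and 253 units over a local background of 59.0 to 72.0, and 60.2% to 72.2% of the gene spots were well above background by the scanner's own criterion. All 5 markers of cortical excitatory neurons were well above background on both arrays of every pool. A gene counted as called higher if both dyes gave a signal of 1.5-fold the control or more, and as called lower if both gave 0.75-fold or less. *Xist*, the RNA of the inactive X chromosome of female cells, was detected by both probes with both dyes in only 1 pool, control P35, whose animals are described as male, so the NBH 4 weeks values are also given against the 10 weeks control. Of 7 markers of choroid plexus, 6 were called higher in NBH 1 week, 3 in NBH 4 weeks and 6 in ABH 4 weeks (*Ttr* 92.4-fold, 29.9-fold and 53.5-fold), against 0 of 5 compared in ABH 1 week. On the chips the controls took row 1 and the surgery pools row 2, so position and surgery cannot be told apart.

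Of the 7 class II genes, 5 had their highest level 1 week after adult surgery. Against the 10 weeks control, *H2-Ab1* was 5.01-fold, *H2-Eb1* 3.80-fold, *Cd74* 3.15-fold and *H2-DMb1* 2.53-fold higher in the ABH 1 week pool, and these 4 of the 7 genes were called higher. *H2-Aa*, *Ciita* and *H2-DMa* were not called, with mean log2 fold changes of 0.71, 0.37 and 0.14. Among all 16320 genes compared, 4.44% were called higher and 6.37% lower, and none of the 7 was called lower. In numbers these were 725 and 1039 genes, but 962 and 384 after quantile normalization of the arrays, under which the same 4 genes and *Ciita* were called higher. The median log2 fold change of the 7 genes was 1.34, and that of all genes was −0.08. The probe sequences were not used here, so hybridization of a probe to RNA of related class II genes could not be checked. In bulk tissue, more cells with class II and more class II RNA per cell cannot be told apart.

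*H2-Ab1* moved most. Its level with Cy3 and Cy5 was −1.23 and −1.21 in control P7, −1.61 and −1.63 in control P14, −1.03 and −1.25 in control P35, −0.82 and −0.87 in the 10 weeks control, −1.13 and −1.08 in NBH 1 week, −0.91 and −0.98 in NBH 4 weeks, 1.45 and 1.51 in ABH 1 week, and −0.37 and −0.37 in ABH 4 weeks. Both ABH 1 week arrays stood above all others, and both ABH 4 weeks arrays came next, above every control and NBH array. The log2 fold change in ABH 1 week was 2.33 ± 0.07 (SD of the dyes, n = 2 arrays of 1 pool), and only 0.282% of the compared genes had a larger one. *H2-Ab1* is the one gene of the 7 with 2 probes, and the other probe gave 2.13, or 4.37-fold.

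*H2-Eb1* followed the same order at its top. Its level with Cy3 and Cy5 was −1.74 and −1.83 in control P7, −1.78 and −1.88 in control P14, −1.26 and −1.28 in control P35, −1.11 and −1.06 in the 10 weeks control, −1.64 and −1.61 in NBH 1 week, −1.15 and −1.17 in NBH 4 weeks, 0.90 and 0.78 in ABH 1 week, and −0.70 and −0.69 in ABH 4 weeks. The arrays of ABH 1 week and then of ABH 4 weeks stood above all others, and the P7, P14 and NBH 1 week arrays made up the lowest group, which did not overlap with the rest. The log2 fold change in ABH 1 week was 1.93 ± 0.13. The other gene with X and Y cores in its promoter window, *H2-DMb1*, had the smallest fold change of the 4 genes called. Of these, *H2-Ab1* and *Cd74* had no window to search.

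*Cd74*, the invariant chain, rose above its controls in ABH 1 week and was near them in ABH 4 weeks. Its level with Cy3 and Cy5 was −1.97 and −1.96 in control P7, −1.54 and −1.63 in control P14, −1.38 and −1.49 in control P35, −1.12 and −1.33 in the 10 weeks control, −1.18 and −1.83 in NBH 1 week, −1.34 and −1.37 in NBH 4 weeks, 0.40 and 0.46 in ABH 1 week, and −1.23 and −1.02 in ABH 4 weeks. Both ABH 1 week arrays stood above all others, and the ABH 4 weeks arrays overlapped with those of the 10 weeks control. The log2 fold change in ABH 1 week was 1.65 ± 0.20, and 0.950% of the compared genes had a larger one.

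The chains of the DM molecule did not move together. The level of *H2-DMb1* with Cy3 and Cy5 was −2.12 and −2.18 in control P7, −1.81 and −1.94 in control P14, −1.65 and −1.66 in control P35, −1.77 and −1.72 in the 10 weeks control, −1.91 and −1.67 in NBH 1 week, −1.77 and −1.79 in NBH 4 weeks, −0.44 and −0.37 in ABH 1 week, and −1.48 and −1.41 in ABH 4 weeks. The level of *H2-DMa* was −0.12 and −0.21 in control P7, −0.05 and 0.05 in control P14, −0.26 and −0.20 in control P35, −0.30 and −0.44 in the 10 weeks control, 0.01 and −0.26 in NBH 1 week, −0.36 and −0.33 in NBH 4 weeks, −0.24 and −0.21 in ABH 1 week, and −0.46 and −0.47 in ABH 4 weeks. *H2-DMb1* was thus highest in ABH 1 week, at 1.34 ± 0.01 above its control on the log2 scale, whereas the ABH 1 week arrays of *H2-DMa* lay inside the range of the control arrays, at 0.14 ± 0.12. Both genes were well above background on every array, and each has 1 probe.

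*H2-Aa*, the partner chain of *H2-Ab1*, was dim, and its dyes disagreed in several pools. Its level with Cy3 and Cy5 was −2.86 and −3.71 in control P7, −2.82 and −3.58 in control P14, −3.17 and −3.51 in control P35, −2.05 and −3.25 in the 10 weeks control, −3.42 and −3.67 in NBH 1 week, −3.18 and −3.33 in NBH 4 weeks, −1.89 and −1.97 in ABH 1 week, and −2.83 and −2.87 in ABH 4 weeks. The ABH 1 week pool was the highest with each dye, but the Cy3 array of the 10 weeks control came close to it. The log2 fold change in ABH 1 week was therefore 0.16 with Cy3 and 1.27 with Cy5 (SD 0.79), and the gene was not called. Against control P35 the difference was 1.28 with Cy3 and 1.54 with Cy5, or 2.66-fold, past the limit with both dyes. That control is further from the ABH pool in age, and it is the pool in which both *Xist* probes were detected with both dyes.

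**Figure D2:**
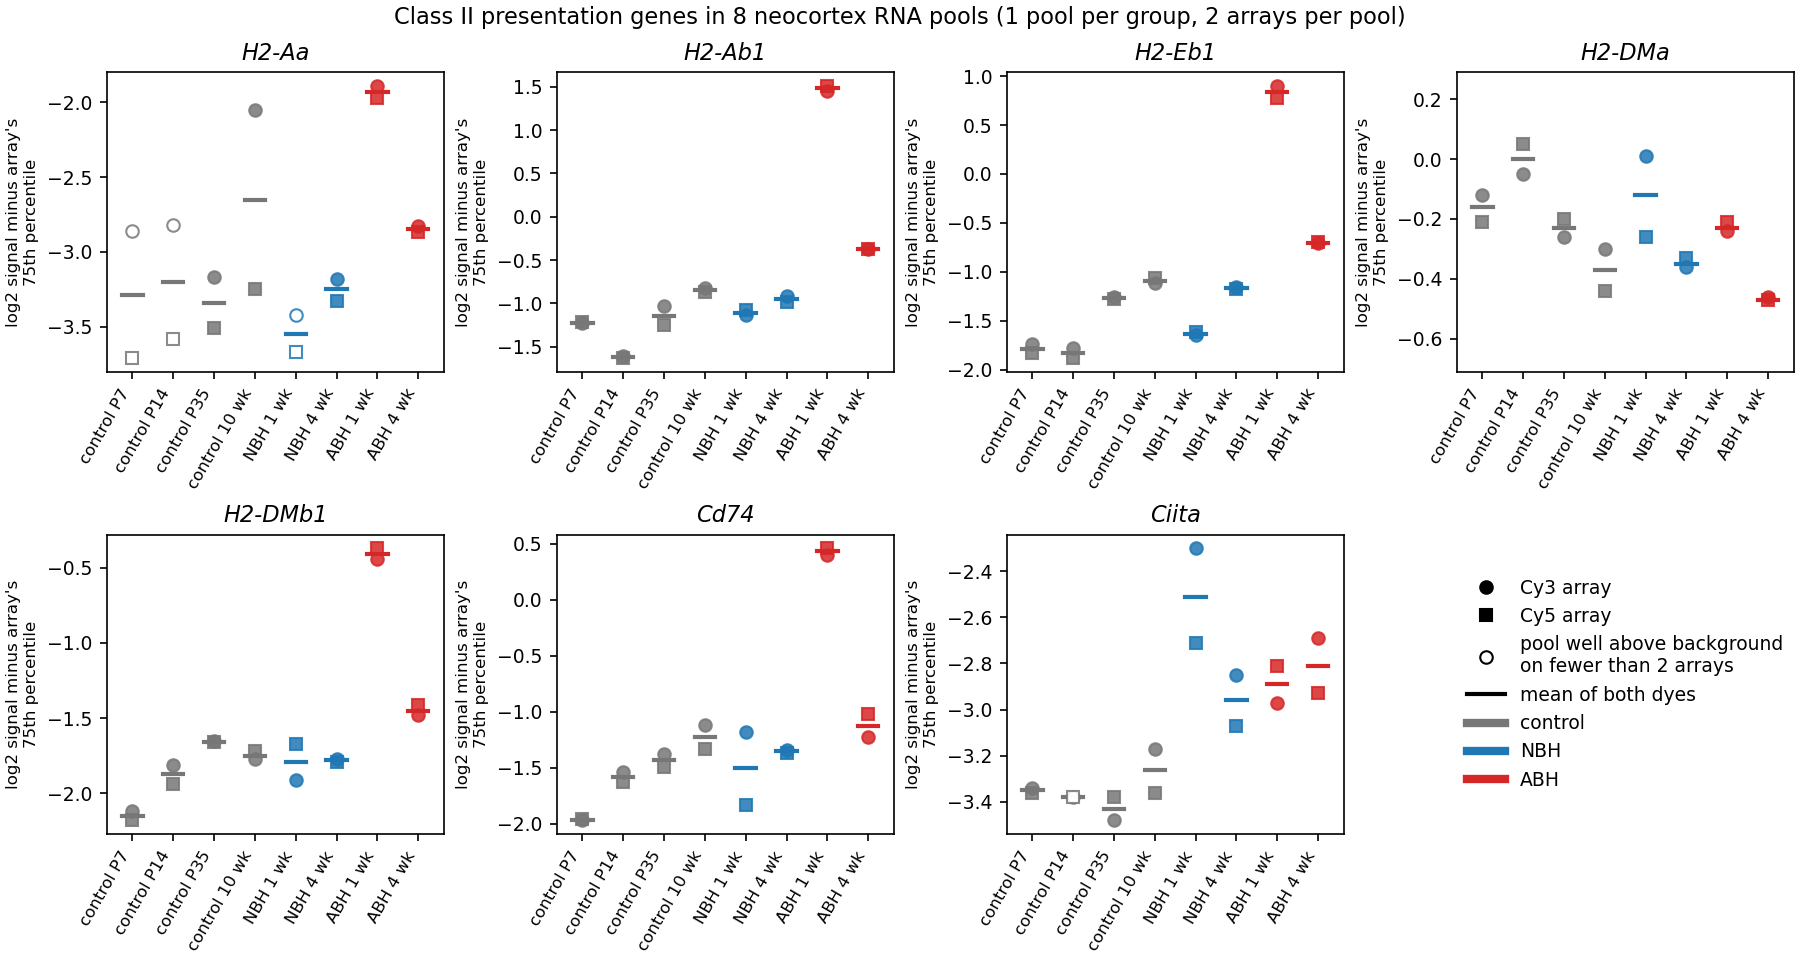
Level of each gene (y axis, log2 signal minus the 75th percentile of the array) in the 8 RNA pools (x axis), with a circle for the Cy3 array, a square for the Cy5 array, open symbols for pools well above background on fewer than 2 arrays, and a bar for the mean of the dyes. The ABH 1 week pool is the highest with both dyes for 5 of the 7 genes, *Ciita* is highest in NBH 1 week and *H2-DMa* is lowest in ABH 4 weeks.

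*Ciita* was dim, and its highest mean level was in NBH 1 week, only slightly above ABH 1 week with Cy5. Its level with Cy3 and Cy5 was −3.34 and −3.36 in control P7, −3.38 and −3.38 in control P14, −3.48 and −3.38 in control P35, −3.17 and −3.36 in the 10 weeks control, −2.30 and −2.71 in NBH 1 week, −2.85 and −3.07 in NBH 4 weeks, −2.97 and −2.81 in ABH 1 week, and −2.69 and −2.93 in ABH 4 weeks. On this scale every array of a surgery pool lay above every control array. In unscaled median intensities this did not hold with Cy5. There NBH 4 weeks and ABH 4 weeks (163 each) lay below control P7 (166). Both NBH 1 week arrays lay in or above the range of the other surgery pools. In the unscaled median intensities the order with Cy5 was the reverse, at 193 in NBH 1 week and 216 in ABH 1 week. In NBH 1 week *Ciita* was called, 1.83-fold higher than in control P14 (log2 difference 1.08 with Cy3 and 0.67 with Cy5). In control P14 it was well above background on 1 of 2 arrays and was taken at its own signal. It was not called elsewhere, with log2 fold changes of 0.47 ± 0.23 (NBH 4 weeks), 0.37 ± 0.25 (ABH 1 week) and 0.45 ± 0.04 (ABH 4 weeks).

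After neonatal surgery the other genes stayed close to their controls. In NBH 1 week, 1 of the 6 genes compared was called higher (*Ciita*) and 0 lower, and among all 15469 genes compared 0.472% were called higher and 0.427% lower. *H2-Ab1* came nearest to the limit, at 0.51 ± 0.04 on the log2 scale or 1.43-fold, and 1.79% of the compared genes had a larger value. *H2-Eb1* stood at 0.20 ± 0.10, and the dyes disagreed in direction for *Cd74* (0.36 and −0.20), *H2-DMb1* (−0.11 and 0.28) and *H2-DMa* (0.07 and −0.31). *H2-Aa* was not compared, since in neither pool did both of its arrays pass the background criterion. In NBH 4 weeks 0 of 7 genes were called in either direction, beside 0.214% called higher and 0.75% called lower among all 15873 genes, and their log2 fold changes lay between −0.12 (*H2-DMb1*) and 0.47 (*Ciita*). With the 10 weeks control in place of control P35, again 0 of the 7 were called, but the mean difference was below 0 for *H2-Aa* (−0.60 in place of 0.09), *H2-Ab1* (−0.10 in place of 0.20), *Cd74* (−0.13 in place of 0.08) and *H2-Eb1* (−0.08 in place of 0.11). *Ciita* was at 0.31, *H2-DMa* at 0.02 and *H2-DMb1* at −0.03.

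At 4 weeks after adult surgery most of the difference was gone. None of the 7 genes was called in ABH 4 weeks, beside 0.430% of all 16294 genes called higher and 0.196% called lower. *H2-Ab1* was 1.39-fold its control (log2 0.47 ± 0.03), *H2-Eb1* 1.31-fold (0.39 ± 0.03) and *H2-DMb1* 1.23-fold (0.30 ± 0.01), with both dyes above the control for each. *Cd74* (0.10 ± 0.30) and *H2-Aa* (−0.21 ± 0.82) had dyes on opposite sides of 0, and *H2-DMa* stood at −0.10 ± 0.09. Between the ABH pools directly, *H2-Ab1* was 3.61-fold, *Cd74* 2.94-fold, *H2-Eb1* 2.90-fold, *H2-DMb1* 2.06-fold and *H2-Aa* 1.89-fold lower at 4 weeks than at 1 week, while *Ciita* differed by 0.08 ± 0.29 on the log2 scale. The comparisons of both ABH pools share the 10 weeks control. The ABH 4 weeks pool is labeled 15 weeks old, so its difference in age and its surgery cannot be told apart.

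**Figure D3:**
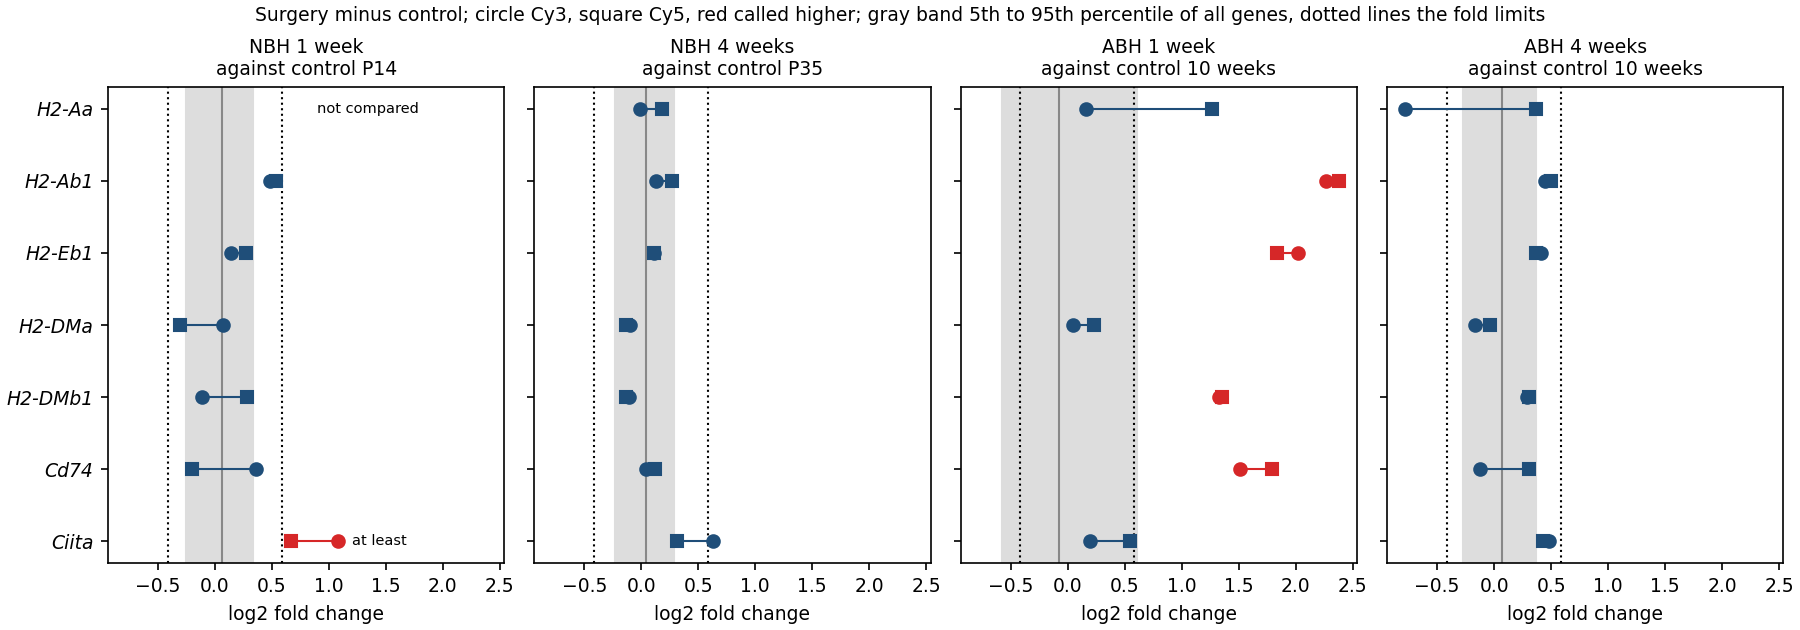
Log2 fold change (x axis) of each gene (y axis) in the 4 comparisons with Cy3 (circles) and Cy5 (squares), with red for genes called higher, dotted lines at the fold limits and a gray band from the 5th to the 95th percentile of all genes compared. *H2-Ab1*, *H2-Eb1*, *Cd74* and *H2-DMb1* lie far right of the band in ABH 1 week, and *Ciita* alone passes the limit in NBH 1 week.

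Among the controls, several class II genes were higher in the older pools. From P7 to 10 weeks the log2 difference was 0.74 ± 0.16 for *Cd74*, 0.70 ± 0.10 for *H2-Eb1*, 0.41 ± 0.08 for *H2-DMb1* and 0.37 ± 0.05 for *H2-Ab1*, against −0.20 ± 0.04 for *H2-DMa* and 0.09 ± 0.12 for *Ciita*. *H2-Ab1* was lower at P14 than at P7 by 0.40 ± 0.02, while *Cd74* was higher by 0.38 ± 0.07, so the genes did not share 1 course in the first weeks. For *H2-Eb1* the step lay between P14 and P35, at 0.55 ± 0.06. Over the 8 pools, the mean levels of *H2-Ab1*, *H2-Eb1*, *H2-DMb1* and *Cd74* correlated with r = 0.96 to 0.99 in their 6 pairs, and with 0.69 to 0.92 over the 7 pools without ABH 1 week. *H2-DMa* ran from −0.40 to −0.21 with these 4 genes over the 8 pools, but from −0.95 to −0.63 over the 7 pools without ABH 1 week. *Ciita* ran from 0.31 to 0.38 over the 8 pools and from 0.26 to 0.47 over the 7. These values describe 8 pools that share their scaling, and no test was made.

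The 5 genes most like the mean profile of the class II genes, out of 9704 candidates, were *Ccl4*, a chemokine of activated microglia and macrophages (r = 0.997), *Ncf4*, a subunit of the phagocyte oxidase (0.996), *Phf11b* (0.993), *C3ar1*, the receptor of the complement fragment C3a (0.993), and *Phf11a* (0.993). Each was highest in ABH 1 week. Both arrays had *Ccl4* well above background in only 5 of the 8 pools, so its r rests in part on values near background. Over the 7 pools without ABH 1 week their r was 0.95 to 0.98.

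The factors that bind the class II promoters and the signals that lead to *Ciita* were mostly not called in ABH 1 week. Of the promoter factors, 0 of 6 compared were called in any comparison, with log2 fold changes in ABH 1 week between −0.40 (*Creb1*) and 0.29 (*Rfxank*, a subunit of the RFX complex), and *Rfx5* was not well above background on both arrays of any pool compared. Interferon gamma is the main known inducer of *Ciita*, and of 8 genes compared on that route, 2 were called higher in ABH 1 week and 0 in the other comparisons. *Ifngr1*, a chain of the receptor, was 1.68-fold higher, and *Irf8*, a transcription factor that microglia and other myeloid cells also need for their own identity, was 3.06-fold higher. *Irf1*, a transcription factor that interferon gamma induces, stood at 0.58 ± 0.10, past the limit with Cy3 only. The cytokine gene *Ifng* was not compared, since it was not well above background on both arrays of either pool.

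Among 7 endosomal genes that handle antigen or class II, 4 were called higher in ABH 1 week, namely *Ifi30*, a thiol reductase of the endosome (3.76-fold), *Ctsd* (at least 1.85-fold, since its spots were saturated on both ABH 1 week arrays) and *Ctsl* (1.75-fold), which are cathepsins, and *Lgmn*, the asparaginyl endopeptidase (1.73-fold). *Ctsb*, another cathepsin, was saturated on both ABH 1 week arrays and 1 control array and gave no call, and *Marchf8* stood at 0.15 ± 0.16. *Marchf1*, a ubiquitin ligase that removes class II from the cell surface, was called lower, at 0.650-fold, and it was also lower in NBH 1 week (0.578-fold) and NBH 4 weeks (0.665-fold), with 0.728-fold and no call in ABH 4 weeks. Its levels were below the control in all 4 comparisons with both dyes. The part of *Marchf1* in the class II values was not tested. The median of the endosomal list was 0.79 in ABH 1 week and between 0.07 and 0.12 in the other comparisons.

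The other class II chains were not called. *H2-Oa* and *H2-Ob* encode the DO molecule, which restrains DM, and stood at 0.61 ± 0.10 and −0.12 ± 0.02 in ABH 1 week, the former with Cy3 just under the limit. *H2-Eb2* and *H2-DMb2* were not well above background on both arrays of either pool. Of the genes for contact with T cells, 2 of 5 were called higher, *Cd86* (2.10-fold) and *Icosl* (1.81-fold), while *Cd80*, the close relative of *Cd86*, stood at 0.07 ± 0.07 and *Cd40* at 0.09 ± 0.13.

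The class I pathway, which presents peptides from inside the cell, was higher along with class II. Of its 10 genes 8 were called higher in ABH 1 week and 0 in the other 3 comparisons. They were the heavy chains *H2-K1* (3.10-fold) and *H2-D1* (2.92-fold), *B2m* (2.19-fold), the peptide transporter genes *Tap1* (1.77-fold) and *Tap2* (1.69-fold), *Tapbp* (1.60-fold) and the immunoproteasome subunits *Psmb8* (3.07-fold) and *Psmb9* (2.58-fold). *Nlrc5*, the counterpart of *Ciita* for class I, stood at −0.39 ± 0.10 and was not called. Neither transactivator gene was called in ABH 1 week, while chains of both pathways were. *Ciita* was dim, stood at 0.20 with Cy3 and 0.55 with Cy5, and was called under quantile normalization. The part of either gene in the values of the chains was not tested. The median of the class I list was 0.98, beside 1.34 for the class II genes.

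Genes that mark the cells able to carry class II differed between the same pools. Of the markers of border macrophages, 5 of 7 compared were called higher in ABH 1 week, namely *Ms4a7* (11.4-fold), *F13a1* (5.47-fold), *Stab1* (4.44-fold), *Pf4* (4.33-fold) and *Cbr2* (2.27-fold), with *Mrc1* at 0.68 ± 0.30, *Lyve1* at −0.15 ± 0.14 and *Cd163* not well above background on any array of either pool. Their summed linear signal, in units of the 75th percentile, was 3.16 and 3.06 with Cy3 and Cy5 in the 10 weeks control, 12.7 and 13 in ABH 1 week, and 3.29 and 3.08 in ABH 4 weeks, beside 2.95 and 2.67, 7.89 and 7.97, and 3.19 and 3.25 for the class II genes. Of the microglia markers 5 of 10 were called higher (among them *Aif1* 2.63-fold, *Cx3cr1* 1.87-fold, *Gpr34* 1.85-fold and *Csf1r* 1.78-fold), whereas *P2ry12* (0.49 ± 0.00), *Tmem119* (0.39 ± 0.25) and *Siglech* (−0.08 ± 0.09) were not, and the sum went from 141 and 133 to 168 and 167, with *Siglech* saturated on 1 of 2 arrays of each pool. None of the macrophage or microglia markers was called in the other 3 comparisons. The part of these cells in the class II values was not tested.

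Markers of other carriers of class II or of infiltrating cells gave a mixed picture in ABH 1 week. Of the dendritic cell markers, 1 of 6 compared was called, *Itgax*, at least 6.56-fold higher, a gene that activated microglia also express, while *Xcr1* and *Clec9a* were not well above background on any array of the 2 pools, and the summed signal was 1.80 and 1.48 in the control and 1.78 and 1.77 in ABH 1 week. Of the B cell markers, *Cd79b* was called 2.01-fold higher and *Cd79a* at least 1.44-fold lower, and *Ms4a1* was not well above background, with sums of 0.581 and 0.495 against 0.527 and 0.525. Of the T cell markers 0 of 4 compared were called higher and *Cd8a* was called lower, at least 2.47-fold, with sums of 9.55 and 8.77 against 6.98 and 7.26. *Cd3d* and *Cd3g* were not well above background on any array of these pools. Among monocyte markers 2 of 4 were called higher, *Fn1* (2.67-fold) and *Chil3* (2.06-fold), with sums of 4.21 and 4.47 against 11.0 and 10.9. *Ccr2* gave no call (−0.68 with Cy3 and 0.81 with Cy5), nor did *Plac8*, the lowest of the 4 at a mean of −0.32.

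Neutrophil, blood and astrocyte genes also differed in ABH 1 week. *S100a8* (4.68-fold) and *S100a9* (4.28-fold) were called among 3 neutrophil markers, with sums of 0.508 and 0.468 against 1.84 and 1.78. *S100a9* was also called higher in NBH 1 week (2.03-fold), where 1 of the 6 class II genes compared was. Of 3 blood markers, *Alas2* (4.24-fold) and *Hbb-bs* (3.87-fold) were called higher, with sums of 36.4 and 33.2 against at least 61.0 and 57.6, since the third, *Hba-a1*, was saturated on both ABH 1 week arrays. *Gfap*, which astrocytes increase after injury, was 7.59-fold higher, and the other 4 of 5 astrocyte markers were not called. *Gfap* was also called in ABH 4 weeks (1.92-fold), where 0 of the 7 class II genes were. No marker of cortical excitatory neurons was called in ABH 1 week. The part of blood or of any other cell type in the class II values was not tested. In NBH 4 weeks *Alas2* (1.83-fold) and *Hbb-bs* (2.03-fold) were likewise called higher, and 0 of the 7 class II genes were.

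**Figure D4:**
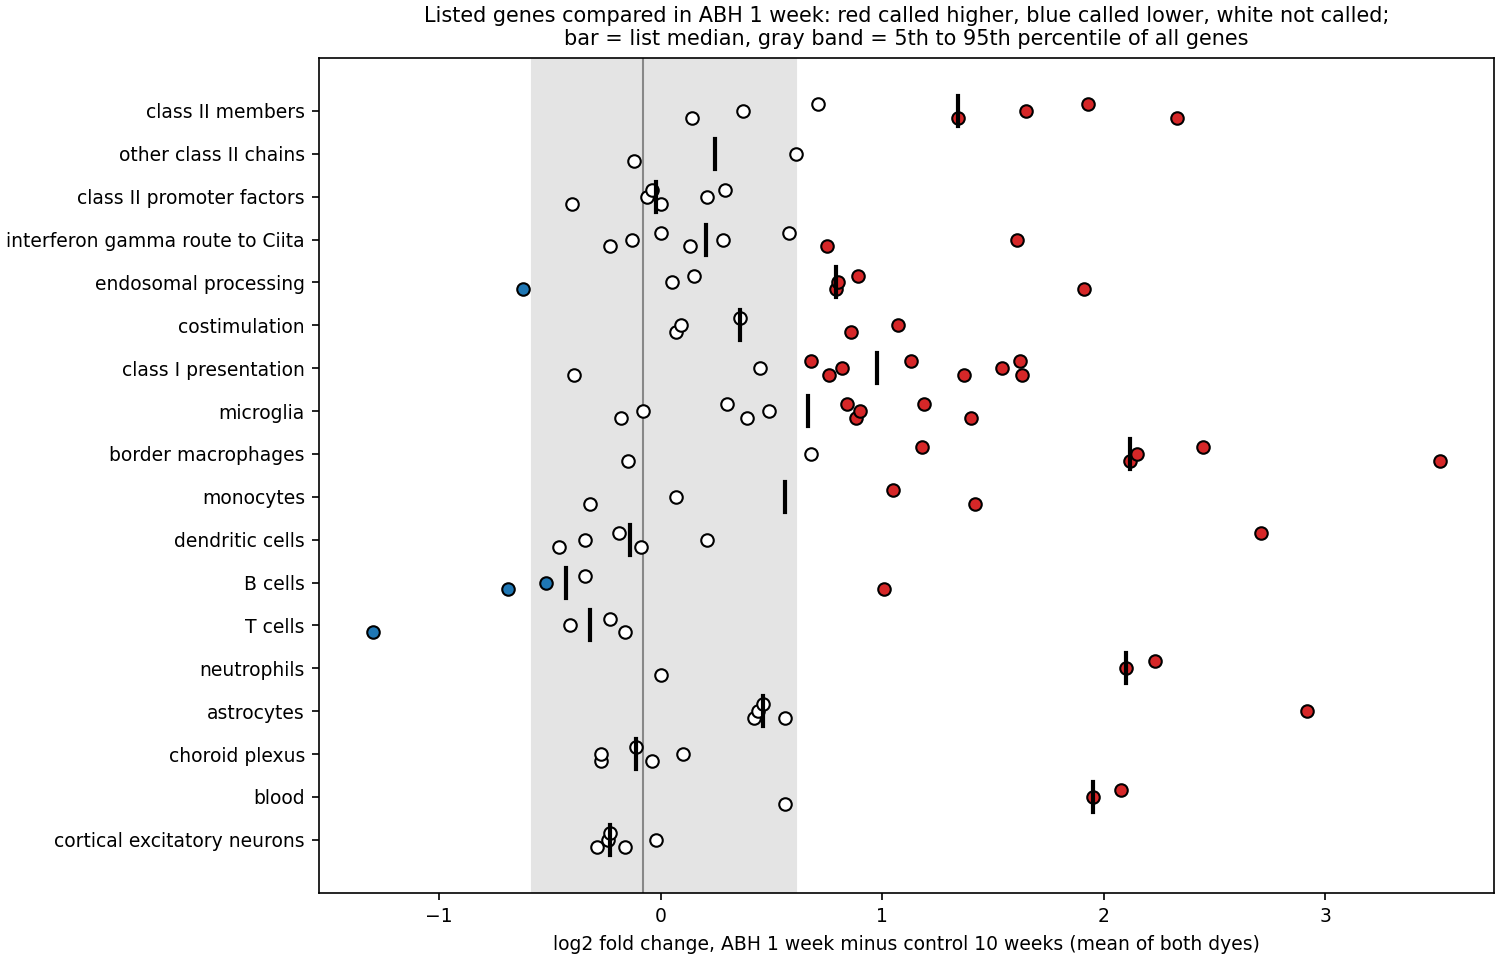
Mean log2 fold change of both dyes in ABH 1 week against the 10 weeks control (x axis) for each listed gene that was compared (points), by list (y axis), with red for called higher, blue for called lower, white for not called, a bar for the list's median and a gray band from the 5th to the 95th percentile of all genes. The class II genes have a median of 1.34, above that of the class I list (0.98) and below that of the border macrophage list (2.12), and the promoter factors lie around 0.

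**Figure D5:**
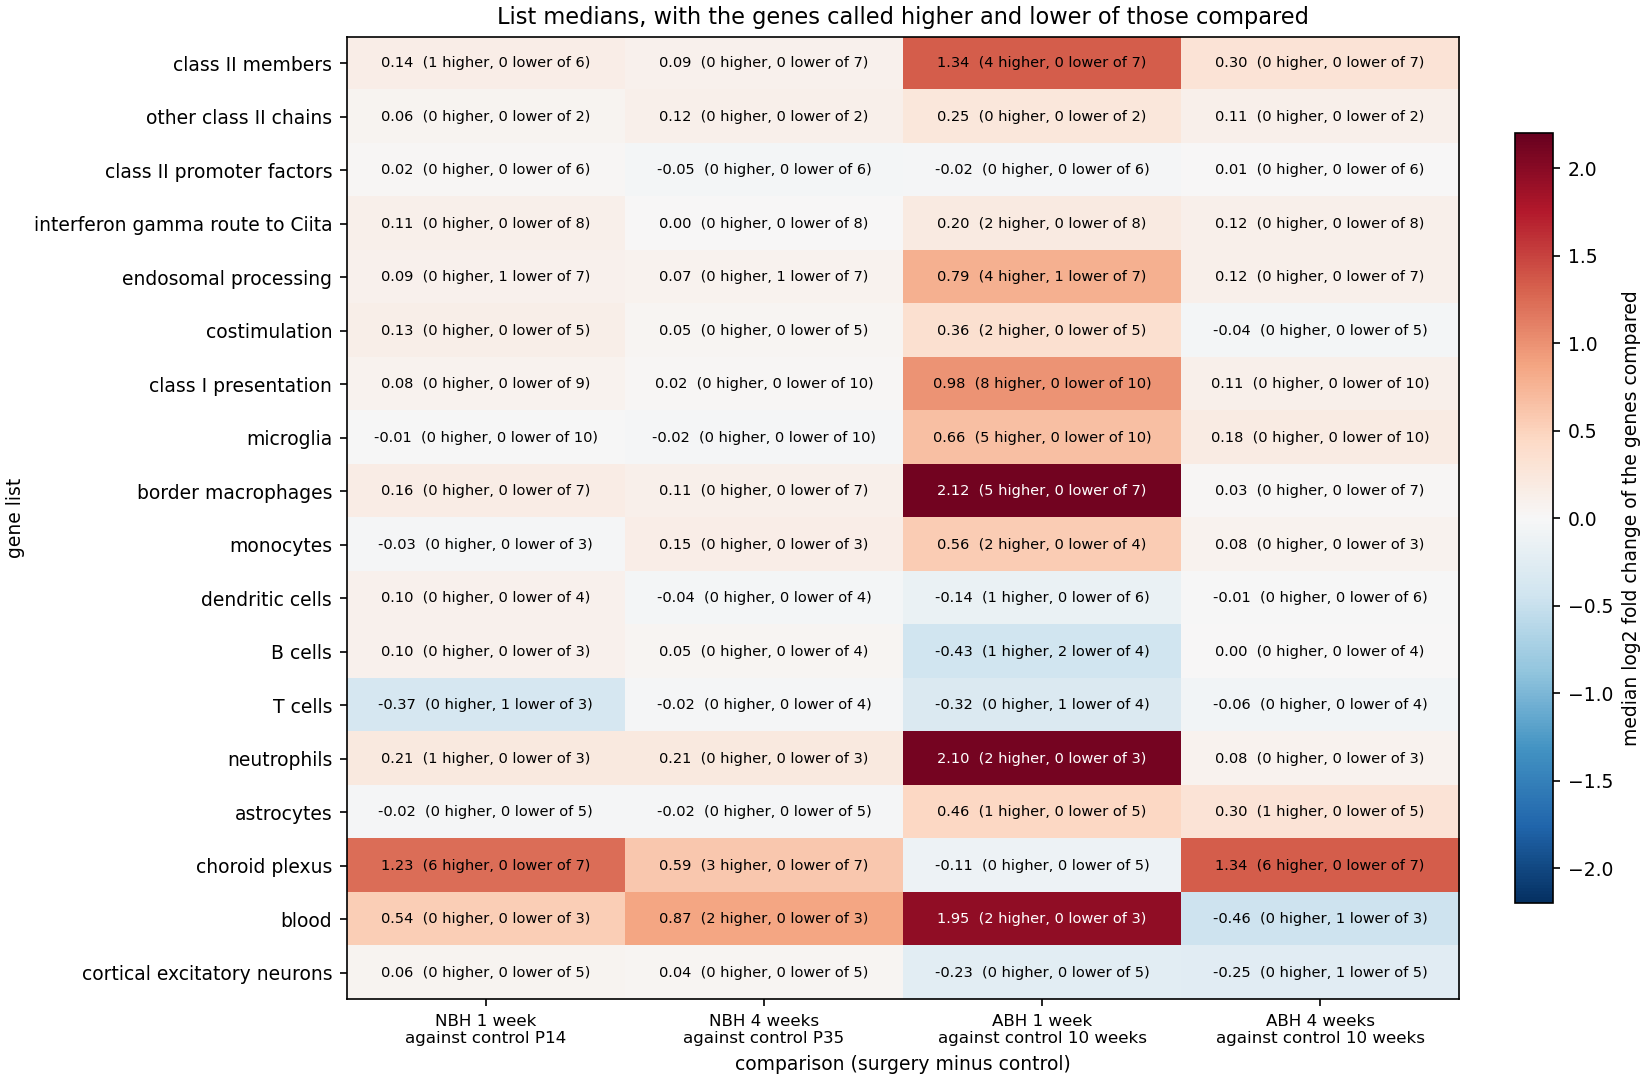
Median log2 fold change of each gene list (rows) in the 4 comparisons (columns), shown by color, with the median and the number of genes called higher and lower among those compared written in each cell. The class II genes, the class I pathway, border macrophages and microglia have called genes in ABH 1 week, and of these 4 lists only the class II genes have 1 in another comparison (*Ciita* in NBH 1 week).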

How the data were processed

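RNA from 8 neocortex pools was measured on 16 Agilent mouse 8 × 60 K arrays, and each pool had 1 Cy3 array and 1 Cy5 array. The authors read the scans with Agilent Feature Extraction 11.0.1.1 (headers name mm9), and the deposited scanner tables hold spot intensities in fluorescence units. The deposited value table holds the processed signal intensity, used as an alternative. Here the median signal of the labeled channel was corrected with limma 3.58.1 (R 4.3.3, normexp, offset 50), outlier and control spots were dropped, and log2 values minus the 75th percentile over the gene spots of each array were averaged per probe (Python 3.11.15, pandas 2.3.3). Probes were named by RefSeq accession (GRCm38.p6 table, names only), and each gene takes its brightest probe. A gene was compared, within each dye, if 1 or both pools had it well above background on each of their arrays. A pool not well above background was held at the lowest signal well above background of its array, or at its own if higher. Such values are given as "at least", except in the text for *Ciita*, whose own signal was used. No p-value was computed, since each group is 1 pool, and the number of arrays limits the precision. The script that makes the calls was first checked on simulated data. The genes, lists and tests were chosen with earlier results of these data known. Named are the 7 genes, listed genes by count with those called or defining, and the 5 genes most correlated with them that span at least 1.5-fold. Correlations without ABH 1 week were added after seeing the data, and 11 alternatives are given in the closing section. Some listed genes are counted but not reported by name here.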

Additional observations from a re-analysis of the deposited data

How the results depend on the processing

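The counts of called class II genes were computed again with 11 alternatives (10 for NBH 1 week, which has no next nearest control). Of these, 82 of 86 counts stayed within 1.5 times the reported one. Most of the 86 have a reported count of 0, and for them this means only that the count stayed at 0. With 2-fold limits *Ciita* was no longer called in NBH 1 week, so the count of genes higher was 0. With Cy3 alone, 1 gene (*Ciita*) was higher in NBH 4 weeks and 1 (*H2-Aa*) lower in ABH 4 weeks, and with control P35, 1 (*H2-Ab1*) was higher in ABH 4 weeks. In ABH 1 week the count of 4 became 5 with quantile normalization (*Ciita* added) and with Cy5 alone or control P35 (*H2-Aa* added). No value called under the reported setting changed its direction, and 258 of 264 recomputed calls of single genes were the same. No paired analysis was possible because both arrays of a pool carry the same RNA and each group has 1 pool.

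The scaling between arrays changed the counts over all genes more than those of the class II genes. In ABH 1 week 725 genes were higher and 1039 lower, but 962 and 384 with quantile normalization and 1266 and 313 with median scaling, which moved the median of all genes from −0.08 to 0.18. In NBH 1 week the counts were 73 and 66, against 51 and 106 with quantile normalization, 58 and 133 with median scaling and 102 and 486 in the authors' unscaled value table. In NBH 4 weeks they were 34 and 119, against 20 and 142, 20 and 170, and 39 and 1266, and in ABH 4 weeks 70 and 32, against 60 and 47, 57 and 48, and 52 and 496. Signal over background limits *H2-Aa* and *Ciita* most. The cause of these shifts was not tested.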
